A study of Mus musculus with 68 samples.

Results

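The libraries compared here stand at the start and at the end of nuclear reprogramming in the mouse. The comparison asks which somatic genes had gone off, which were still on, and which embryonic genes had come on. They are 3 RNA libraries of cumulus cells (CC), whose nuclei were the donors, and 6 libraries of the inner cell mass (NT-ICM) of blastocysts made by somatic cell nuclear transfer (SCNT). These 9 of the 68 RNA libraries of the study were chosen by their labels alone, and no measured value entered the choice. The study followed SCNT embryos from the first hours after activation to the blastocyst by Smart-seq2, a method that sequences full-length polyadenylated RNA from very few cells. The Smart-seq2 protocol of the study gives 10 blastomeres per reaction and states no number of cells for CCs.

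Both groups were labelled as untreated. CCs came from the cumulus of BDF1 mice, which were also the oocyte donors. For NT-ICM, the CC nucleus was injected into an enucleated metaphase II oocyte, the construct was activated with strontium chloride in the presence of cytochalasin B, and the embryo was cultured to the blastocyst, from which the ICM was separated by micromanipulation. Further groups served as references. The 6 NT-TE libraries hold the trophectoderm (TE) of SCNT blastocysts, and the 2 NF-ICM_control libraries hold the ICM of fertilized embryos from a separate knockdown experiment, where they are the control. They are labelled untreated, while the protocol of that experiment describes a random control morpholino. The fertilized embryos came from C57BL/6j mice. CCs came from females, and the sex of the fertilized embryos is not given in the sources used here. Nuclear transfer, mouse strain, sex and experiment therefore cannot be told apart in any comparison with the fertilized embryos. Captions of the study call its SCNT samples biologically independent for the expression data plotted there. No label says which libraries came from separate cultures or days, and p-values measure the spread between these libraries, part of which may be technical.

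Cumulus cells are somatic cells of the granulosa lineage that surround the oocyte. At ovulation they build a matrix rich in hyaluronan, known as cumulus expansion, and they share with granulosa cells the enzymes of steroid synthesis and the subunits of inhibin and activin. The ICM of the blastocyst gives rise to the epiblast, the pluripotent source of the fetus, and to the primitive endoderm, while the TE forms the placenta. After nuclear transfer the oocyte cytoplasm has to silence the program of the donor cell and start that of the embryo.

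All levels are TPM (transcript abundance scaled to a fixed total per library) summed over the entries of a gene, a scale on which length is already divided out. Where 3 values of a gene are listed for CC, they are its 3 replicates in order. Where 3 values are listed for NT-ICM, they are the lowest, median and highest of its 6 libraries. The CC libraries corresponded to 3.06 to 3.27 gigabases of aligned sequence and held 9813 to 10340 genes at 1 TPM or more. The NT-ICM libraries fell into 2 sets. Replicates 1 to 3 had 2.42 to 2.66 gigabases and 6177 to 6771 genes at 1 TPM or more, and replicates 4 to 6 had 3.65 to 4.22 gigabases and 9011 to 10032 genes. Across genes, log2 levels correlated at 0.760 to 0.763 within replicates 1 to 3, at 0.901 to 0.920 within replicates 4 to 6 and at 0.774 to 0.814 between the sets, against 0.561 to 0.592 between CC and NT-ICM libraries. What separates the sets is not in the labels. The extract protocol in the labels speaks of 3 replicates per stage. Counts are therefore also given for replicates 1 to 3 and for replicates 4 to 6 alone, in that order, a comparison chosen with earlier results of these data known.

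Cumulus and ICM markers separated the 2 groups when summed, with exceptions among single genes. Summed over 10 cumulus and granulosa markers, the level was 1420 to 2241 TPM in the CC libraries and 0 to 20.8 TPM in NT-ICM, where 5 of the 10 were listed at 0 in every library. Nearly all of the NT-ICM sum was Amhr2, a hormone receptor gene, which had 6.86, 3.92 and 2.27 TPM in CC and 0, 15.3 and 20.7 TPM in NT-ICM. Some defining markers were low in the CCs themselves. Amh, which encodes anti-Müllerian hormone, was listed at 0 in all 3, and Foxl2, a transcription factor of granulosa identity, stood at 1.42, 1.56 and 3.78 TPM. Summed over 6 ICM markers, the order was the opposite, with 9.0 to 36.1 TPM in CC and 643 to 1151 TPM in NT-ICM. That sum was 221 to 749 TPM in NT-TE, which overlaps NT-ICM, and 1721 and 2310 TPM in the fertilized ICM. Other cell types also left values. The sum of 6 TE markers was 1932 to 8403 TPM in NT-ICM and 5129 to 16075 TPM in NT-TE, so the ranges overlapped, and no TE marker was listed at 0 in all NT-ICM libraries. In a limma fit of all 4 groups, with the rule for calls given below, 29 of 11269 genes were higher in NT-ICM than in NT-TE (0.257%) and 24 were lower (0.213%). The 5 primitive endoderm markers summed to 1.34 to 104 TPM in NT-ICM. The TE marker sum was 16011 TPM in NF-ICM_control replicate 1, as high as in NT-TE, and 354 TPM in replicate 2, so the 2 fertilized reference libraries stood far apart (Krt18, 10274 and 108 TPM). Counts against them are given without either one. The 6 leukocyte markers summed to 110 to 133 TPM in CC, of which Cd52 alone was 107 to 131 TPM, and to 0 to 11.3 TPM in NT-ICM. The part of these cells in the results was not tested.

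Between CC and NT-ICM, 3351 of 10985 genes tested differed. Only genes with a mean of at least 1 TPM over the 9 libraries were tested. Any gene near 0 in 1 group passed this filter only through the other group, so its direction was fixed in advance. A gene was called when its limma p-value, adjusted over all genes tested by the Benjamini-Hochberg method, was under 0.05 and the groups differed at least 2-fold on the log2(TPM + 1) scale. By this rule 1404 genes were higher in NT-ICM (12.8%) and 1947 were lower (17.7%). The levels of the 2 groups did not overlap for 3774 genes (34.4%). The median difference over all genes, NT-ICM minus CC, was −0.07. Replicates 1 to 3 alone gave 1165 higher and 2798 lower genes, and replicates 4 to 6 alone gave 3245 higher and 2527 lower genes, so the share of higher genes among those called went from 29.4% with the first set to 56.2% with the second. In RNA from a piece of tissue, fewer cells of a type and less RNA per cell cannot be told apart.

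**Figure D1:**
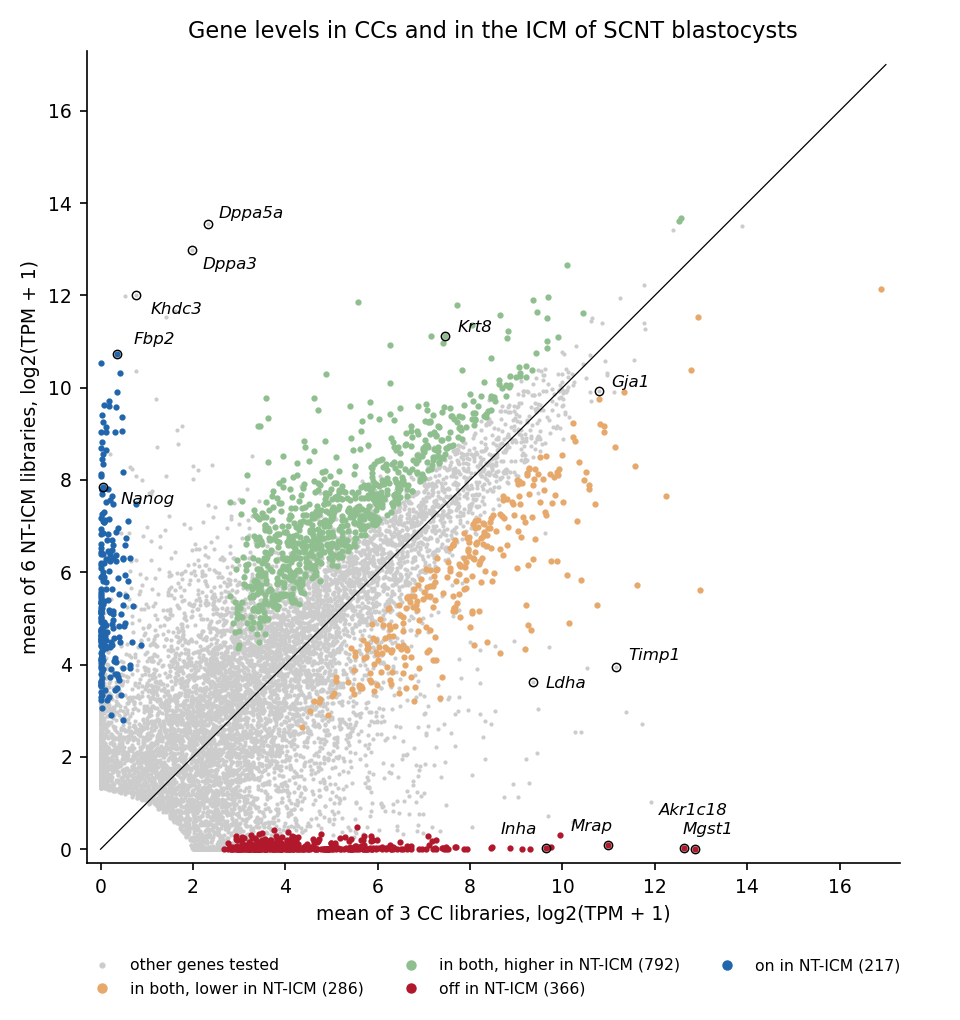
Each point is 1 of the genes tested, with its mean log2(TPM + 1) over the 3 CC libraries on the x axis and over the 6 NT-ICM libraries on the y axis, and the line marks equal levels. The 366 genes off in NT-ICM lie along the x axis, the 217 genes on lie along the y axis, and the 286 lower and 792 higher genes present in both groups flank the line.

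Levels at the 2 ends sorted the genes into classes. Of 5930 genes with at least 5 TPM in every CC library, 366 (6.17%) were off at the end, which here means called lower and under 1 TPM in all 6 NT-ICM libraries, and 3760 (63.4%) had at least 5 TPM in at least 5 of the 6 NT-ICM libraries. The remaining 1804 lay between these limits. In the other direction, 217 genes were on, which means under 1 TPM in every CC library, called higher, and at least 5 TPM in at least 5 NT-ICM libraries. The classes are defined by these levels, so the levels of their members are given as a description. With replicates 1 to 3 alone the off class had 843 genes and the on class 165, and with replicates 4 to 6 alone they had 405 and 497.

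The genes that fell furthest, among called genes whose groups did not overlap, were Mgst1, Akr1c18, Akr1cl and Mrap. Mgst1, a microsomal glutathione transferase (chr6:138140537-138156752, mm10), stood at 7320.0, 7019 and 8097 TPM in CC, and in NT-ICM it was listed at 0 in most libraries, with a highest value of 0.0488 TPM. Its difference was −12.85 ± 0.32 (SE, limma adjusted p = 6.37e-09). Akr1c18, which inactivates progesterone (chr13:4132627-4150631), had 5492, 5570.2 and 7855 TPM in CC and at most 0.096 TPM in NT-ICM, with a difference of −12.58 ± 0.33 (limma adjusted p = 9.08e-09). Both genes were therefore among the most abundant messages of the donor cell and near or at 0 in every ICM library of either set. Mrap, the accessory protein of the melanocortin receptors for adrenocorticotropic hormone, fell from 2067, 1868 and 2179 TPM to at most 0.263 TPM (−10.91 ± 0.36). Akr1cl, another aldo-keto reductase gene, fell from 3885, 4008 and 3641 TPM to a median of 0.0936 TPM (−11.23 ± 0.59), with a highest NT-ICM value of 4.18 TPM.

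Among the further large falls, Ephx2 and Nupr1 reached higher levels in single NT-ICM libraries than the 4 genes above. Ephx2, a soluble epoxide hydrolase, had 2939, 2934 and 2121 TPM in CC and 0, 0.0563 and 35.8 TPM as the lowest, median and highest NT-ICM values (−10.03 ± 1.14, limma adjusted p = 8.5e-05). Nupr1, a stress-induced transcriptional regulator, had 3147, 3153 and 3861 TPM in CC and 0.891, 3.37 and 16.7 TPM in NT-ICM (−9.53 ± 0.72). Like the other largest falls, both were taken from genes without overlapping groups. Ephx2 was listed at 0 in replicates 1 to 3 and at 0.113 to 35.8 TPM in replicates 4 to 6. Rgs2, a regulator of G protein signalling, went from 866, 1033 and 1065 TPM to at most 0.427 TPM (−9.63 ± 0.38). Nts, the precursor of neurotensin, went from 686, 551 and 646 TPM to 0 in all 6 NT-ICM libraries as listed. By their level in CC, the other leading members of the off class were Sfrp4, a secreted Wnt antagonist (600.2, 543 and 529 TPM), Ncoa7, a nuclear receptor coactivator (493, 466 and 427 TPM) and Nrn1, or neuritin (395, 362 and 301 TPM), all at no more than 0.139 TPM in NT-ICM.

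**Figure D2:**
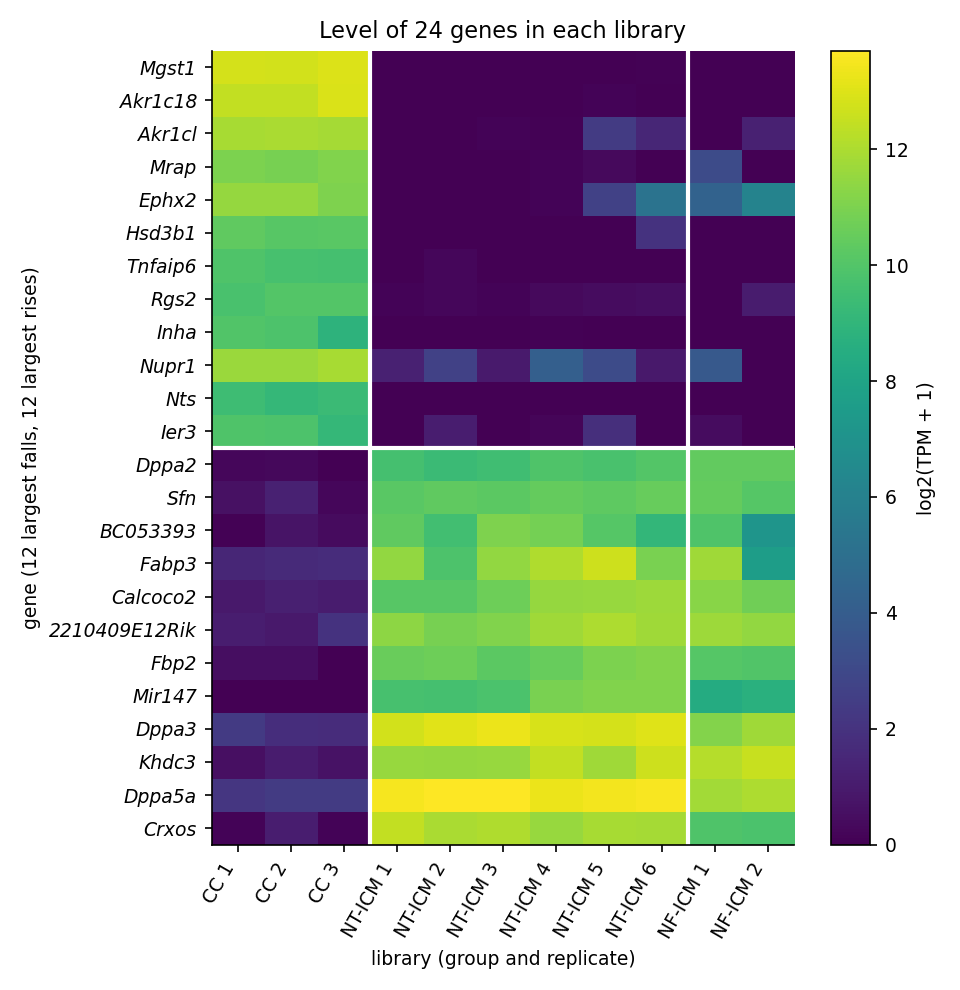
The colour gives log2(TPM + 1) of the 12 genes with the largest fall (upper block) and the 12 with the largest rise (lower block) in each of the 3 CC, 6 NT-ICM and 2 NF-ICM_control libraries. The genes were chosen among those whose CC and NT-ICM libraries do not overlap, and Ephx2 reaches 35.8 TPM in 1 NT-ICM library.

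Of the 366 off genes, 157 had a mean of at least 20 TPM in CC and 33 had at least 100 TPM. In NT-ICM, 77 of the 366 were listed at 0 in all 6 libraries. The class was also low in embryo tissues that did not define it, of which NT-TE came from SCNT blastocysts as well. In all 6 NT-TE libraries 277 genes were under 1 TPM, and in both NF-ICM_control libraries 282 were. Among all 5930 CC genes these numbers were 363 and 437. Only 6 of the 366 reached 5 TPM in both fertilized libraries. The median transcript length of the off genes was 1746 bases, that of the on genes 1156 bases and that of all genes tested 1241 bases.

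Genes of cumulus expansion fell almost as a group. Of 15 listed, 13 were tested, 12 fell (92.3%, beside 17.7% of all genes) and none rose. The median difference was −5.41 beside −0.07 for all genes. In NT-ICM, 1 of the 15 had a median of at least 1 TPM. Most of the others could pass the filter only through CC and had no room to rise. Either set of NT-ICM alone gave 12 lower and 0 higher genes. Tnfaip6, which binds hyaluronan and links it to heavy chains in the expanding matrix, had 968, 829.5 and 794 TPM in CC and at most 0.162 TPM in NT-ICM (−9.72 ± 0.39, limma adjusted p = 1.37e-07). Ptgs2, the inducible cyclooxygenase, had 255, 224 and 249.6 TPM in CC and at most 0.0187 TPM in NT-ICM (−7.92 ± 0.40). Ptx3, a pentraxin of the same matrix, had 102, 106 and 69.4 TPM in CC and was listed at 0 in all NT-ICM libraries (−6.52 ± 0.40). These 3 genes were off in both sets. The exception was Il6, a cytokine, at 6.63, 4.45 and 7.34 TPM in CC and 0, 16.7 and 156 TPM as the lowest, median and highest values in NT-ICM, where the groups overlapped (0.36 ± 1.70, limma adjusted p = 0.898). Has2, the synthase of hyaluronan, was below the filter, with 0.591, 1.12 and 0.341 TPM in CC.

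Among genes of granulosa identity and steroid synthesis, 24 were listed and 19 tested. Of these, 15 fell (78.9%, beside 17.7% of all genes) and none rose, with a median difference of −3.68. In NT-ICM, 7 of the 24 had a median of at least 1 TPM, and most of the others had no room to rise. Replicates 1 to 3 alone gave 17 lower genes, and replicates 4 to 6 alone gave 19 lower and 2 higher. Hsd3b1, which makes progesterone from pregnenolone, had 1322, 1114 and 1162 TPM in CC. In NT-ICM it was listed at 0 in 5 libraries and at 3.03 TPM in replicate 6 (−9.89 ± 0.55, limma adjusted p = 1.42e-06). Inha, the alpha subunit of inhibin, had 1020.4, 921 and 458 TPM in CC and at most 0.054 TPM in NT-ICM (−9.54 ± 0.43). Cyp11a1, the side-chain cleavage enzyme that starts steroid synthesis from cholesterol, had 705, 471 and 275 TPM in CC and 0 to 5.36 TPM in NT-ICM (−7.95 ± 0.79). All 3 steroid and inhibin genes kept the groups apart. Gja1, the gap junction protein connexin 43, was different. It had 1332, 1778 and 2212 TPM in CC and 552, 767 and 1904 TPM as the lowest, median and highest values in NT-ICM, so the groups overlapped (−0.97 ± 0.37, limma adjusted p = 0.0744). Replicates 1 to 3 had 831 to 1904 TPM of Gja1 and replicates 4 to 6 had 552 to 703 TPM.

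Matrix and mesenchymal genes followed the same course. Of 40 listed, 26 were tested, 21 fell (80.8%, beside 17.7% of all genes) and none rose. The median was −3.95, and the sets gave 24 and 23 lower genes. In NT-ICM, 15 of the 40 had a median of at least 1 TPM, and most of the others had no room to rise. Vim, the intermediate filament protein vimentin, had 553, 514 and 501 TPM in CC and was listed at 0 in 5 NT-ICM libraries, with 7.1 TPM in replicate 6 (−8.53 ± 0.73). Timp1, an inhibitor of matrix metalloproteinases, had 2472, 2203 and 2136 TPM in CC and 0.211, 14.6 and 39.5 TPM in NT-ICM (−8.13 ± 1.12, limma adjusted p = 0.000316). Lox, which cross-links collagen, had 198, 274 and 229 TPM in CC and at most 0.0183 TPM in NT-ICM (−7.85 ± 0.41). Lox was thus at or near 0 in all libraries, and Timp1 spread over both sets. Tpm1, a tropomyosin, had 392, 474 and 387 TPM in CC and 197 to 760.2 TPM in NT-ICM, with overlapping groups (−0.46 ± 0.40, limma adjusted p = 0.422). In NT-TE, Tpm1 was 558 to 1061 TPM.

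Immediate early and AP-1 genes respond to growth and stress signals within minutes. Of 23 members tested, 12 fell (52.2%, beside 17.7% of all genes) and none rose (median −2.31). Either set alone gave 13 that fell, and replicates 4 to 6 gave 1 that rose. Ier3, an early response gene linked to cell survival, had 985, 949 and 551 TPM in CC and 0 to 2.57 TPM in NT-ICM (−9.13 ± 0.56). Fosl2, a subunit of AP-1, had 61.2, 56.4 and 69.4 TPM in CC and 0 to 1.01 TPM in NT-ICM (−5.78 ± 0.43). Egr1, a zinc finger factor, had 53.3, 51.1 and 40.9 TPM in CC and 0 to 5.09 TPM in NT-ICM (−5.16 ± 0.66). No NT-ICM library reached the lowest CC library in these 3 genes. By contrast Ier2 had 73.6, 71.7 and 30.3 TPM in CC and 0.21, 182 and 366 TPM in NT-ICM (0.41 ± 1.61, limma adjusted p = 0.878), with 0.21 to 115 TPM in replicates 1 to 3 and 250.2 to 366 TPM in replicates 4 to 6.

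Transcription factors of somatic lineages numbered 36 in the list and 21 among the genes tested. Of these, 15 fell (71.4%, beside 17.7% of all genes) and 2 rose (median −2.36). The rises were 9.52% of those tested, near the 12.8% of all genes. The sets gave 16 and 19 that fell and 2 and 3 that rose. Rora, a nuclear receptor, went from 27.5, 26.1 and 30.2 TPM to at most 0.0167 TPM (−4.84 ± 0.33). Maf, a basic leucine zipper factor, went from 23.5, 24.8 and 26.3 TPM to 0 in all NT-ICM libraries as listed (−4.69 ± 0.32). Zeb2, a repressor of epithelial genes, went from 20.8, 27.9 and 22.7 TPM to at most 0.0228 TPM (−4.61 ± 0.33). These 3 factors were close to 0 in every ICM library. The 2 that rose were Tcf7l2, an effector of Wnt signalling, with 4.3, 5.43 and 6.39 TPM in CC and 9.69, 20.2 and 45.6 TPM in NT-ICM (1.83 ± 0.57, limma adjusted p = 0.0338), and Bach1, a repressor that senses heme, with 4.43, 2.59 and 7.25 TPM in CC and 9.55, 13.5 and 19.97 TPM in NT-ICM (1.46 ± 0.47, limma adjusted p = 0.038). Both calls were lost without any 1 of the CC libraries (limma adjusted p of 0.0881 to 0.13 for Tcf7l2 and 0.0557 to 0.194 for Bach1). Foxo1, a forkhead factor downstream of insulin signalling, did not overlap, with 26.2, 28.4 and 22.5 TPM in CC and 0.19 to 19.5 TPM in NT-ICM, but its difference of −2.01 ± 0.87 missed the threshold (limma adjusted p = 0.111).

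Of 20 genes of MHC class I, which presents antigens, and of the interferon response, 13 were tested. Of these, 7 fell (53.8%, beside 17.7% of all genes) and 2 rose (15.4%, near the 12.8% of all genes). The median was −2.13. The sets gave 8 and 7 that fell and 2 that rose in either. B2m, the light chain of class I molecules, had 1192, 996 and 1112 TPM in CC and 5.21, 54.2 and 112 TPM in NT-ICM (−4.61 ± 0.79, limma adjusted p = 0.00132). Ifitm3, an antiviral membrane protein, had 95.4, 52.9 and 75.4 TPM in CC and 0.0374 to 4.77 TPM in NT-ICM (−4.83 ± 0.67). The proteasome subunit genes of the immunoproteasome moved apart. Psmb8 fell from 38.5, 40.2 and 29.6 TPM to 0 as listed in all 6 libraries (−5.20 ± 0.35), and Psmb9 rose from 7.09, 2.1 and 2.32 TPM to 59.1, 69.1 and 92.2 TPM (4.03 ± 0.39, limma adjusted p = 2.95e-05). Among the heavy chains, H2-D1 rose from 22.4, 23.5 and 13.8 TPM to 48.9, 124 and 250.3 TPM (2.52 ± 0.54), while H2-K1 had 72.9, 73.0 and 62.7 TPM in CC and 31.2, 46.4 and 102 TPM in NT-ICM (−0.51 ± 0.38, limma adjusted p = 0.359). The heavy chain genes are near-identical in sequence, and reads could be split between them.

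Most genes listed as cell cycle inhibitors fell, and most of the cell cycle genes listed rose. Of 14 genes listed as inhibitors, 12 were tested, 8 fell (66.7%, beside 17.7% of all genes) and none rose (median −2.96). In NT-ICM, 5 of the 14 had a median of at least 1 TPM, and most of the others had no room to rise. The 8 include Ccnd2, which encodes cyclin D2 and is no inhibitor. The sets gave 9 and 8 that fell and 0 and 1 that rose. Gadd45a, a growth arrest gene, had 85.1, 95.3 and 126 TPM in CC and 0 to 6.67 TPM in NT-ICM (−6.05 ± 0.72). Cdkn1b, which encodes p27, had 122, 137 and 227 TPM in CC and 5.09, 7.39 and 15.7 TPM in NT-ICM (−4.10 ± 0.42, limma adjusted p = 4.5e-05). Rb1, the retinoblastoma protein gene, had 15.4, 10.4 and 13.6 TPM in CC and at most 0.0614 TPM in NT-ICM (−3.77 ± 0.30). None of these 3 had overlapping groups. Cdkn1a, which encodes p21, had 121, 112 and 63.5 TPM in CC and 14.1 to 282 TPM in NT-ICM (−0.86 ± 0.81, limma adjusted p = 0.468).

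All 32 cell cycle genes listed were tested, 20 rose (62.5%, beside 12.8% of all genes) and none fell (median 2.27). Replicates 1 to 3 alone gave 16 and replicates 4 to 6 alone 27. Mcm2, a subunit of the replicative helicase, had 4.1, 2.34 and 2.46 TPM in CC and 52.5, 95.5 and 121 TPM in NT-ICM (4.47 ± 0.38, limma adjusted p = 1.26e-05). Cdc6, which loads that helicase, had 0.0414, 0.283 and 1.02 TPM in CC and 1.08, 47.8 and 84.3 TPM in NT-ICM (4.49 ± 1.07). Ccne1, or cyclin E1, had 0.0519, 8.32 and 0 TPM in CC and 7.05, 50.1 and 90.7 TPM in NT-ICM (4.27 ± 0.95), and its groups overlapped in 1 library on either side. Pcna, the sliding clamp of DNA polymerase, had 173, 141 and 163 TPM in CC and 154, 291 and 357 TPM in NT-ICM (0.75 ± 0.27, limma adjusted p = 0.057).

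The genes that rose furthest, among called genes whose groups did not overlap, were Crxos, Dppa5a, Khdc3 and Dppa3. Crxos, a homeobox gene of the early embryo, had 0.0925, 1.2 and 0.106 TPM in CC and 3089, 3904 and 5660.3 TPM in NT-ICM (11.51 ± 0.27, limma adjusted p = 6.37e-09). Dppa5a, a KH domain gene used as a marker of pluripotent cells (chr9:78367054-78368199), had 3.54, 4.23 and 4.25 TPM in CC and 9897, 11845 and 13309 TPM in NT-ICM (11.21 ± 0.13, limma adjusted p = 2.39e-11). Khdc3, of the subcortical maternal complex, had 0.5, 1.03 and 0.572 TPM in CC and 2924, 3258 and 6542 TPM in NT-ICM (11.17 ± 0.30). In all 3 the lowest NT-ICM library was far above the highest CC library. Dppa3, also called Stella, which protects methylation of the maternal genome, had 3.96, 2.51 and 2.33 TPM in CC and 6854, 7932 and 10097 TPM in NT-ICM (11.02 ± 0.18). It was also abundant in the SCNT embryo 6 hours after activation, with a median of 20961 TPM. Crxos had 1.49 TPM at that time and 2781 TPM at the 4-cell stage.

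Further large rises were in Fbp2, a fructose bisphosphatase, from 0.425, 0.422 and 0 TPM to 1219, 1567 and 2244 TPM (10.35 ± 0.25), and in Calcoco2, an autophagy receptor, from 0.906, 1.31 and 1.03 TPM to 1128, 2281 and 3333 TPM (9.91 ± 0.40). Sfn, or 14-3-3 sigma, rose from 0.522, 1.41 and 0.203 TPM to 1168, 1292 and 1449.5 TPM (9.63 ± 0.24). The 12 largest also held 2210409E12Rik (10.14 ± 0.32), with 1913 to 4162 TPM in NT-ICM, and BC053393 (9.76 ± 0.43), with 540.1 to 2152 TPM. Mir147, a microRNA gene, had 817 to 2195 TPM in NT-ICM and was listed at 0 in all CC libraries. It lies within AA467197 on chromosome 2 (chr2:122640803-122640881 within chr2:122637887-122641076), which had 447 to 1164 TPM, so the reads of the 2 genes cannot be told apart. The method captures long polyadenylated RNA, and the value is no measure of the mature microRNA.

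Over the 217 genes of the on class the median of the mean level in NT-ICM was 36.6 TPM, and 53 had a mean of at least 100 TPM. In CC, 56 of the 217 were listed at 0 in all 3 libraries. Most of the class was also present in tissues that did not define it. In the trophectoderm, 172 genes had at least 5 TPM in at least 5 of 6 libraries, in the fertilized ICM 178 had at least 5 TPM in both, and 4 were under 1 TPM in both. The leading members by level, beside those above, were Timd2, a cell surface receptor gene (545 to 1323 TPM in NT-ICM), Pramel6, a gene of naive pluripotent cells (436 to 1016 TPM) and Gm16367 (412 to 945 TPM), all under 1 TPM in every CC library. Gm16367 also differed between NT-ICM and NT-TE, where it had 29.99 to 352 TPM (NT-ICM minus NT-TE, 2.37, limma adjusted p = 0.0264).

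Pluripotency genes rose and none fell. Of 30 listed, 26 were tested and 18 rose (69.2%, beside 12.8% of all genes), with a median difference of 5.09. Replicates 1 to 3 alone gave 15 and replicates 4 to 6 alone 24. In CC, 6 of the 30 had a median of at least 1 TPM. Most of the others could pass the filter only through NT-ICM and had no room to fall. Nanog, the homeobox factor of the epiblast, had 0.0846, 0 and 0.0478 TPM in CC and 154, 249.7 and 274 TPM in NT-ICM (7.76 ± 0.31, limma adjusted p = 1.33e-07). Zfp42, also known as Rex1, had 0, 0.0328 and 0 TPM in CC and 219, 419 and 552 TPM in NT-ICM (8.62 ± 0.33). Dppa2, an activator of early embryonic genes, had 0.194, 0.207 and 0 TPM in CC and 636, 833 and 1035 TPM in NT-ICM (9.52 ± 0.24). These 3 had high levels in both sets. Pou5f1, which encodes Oct4, differed more between libraries, with 0, 0.141 and 0 TPM in CC and 6.38, 57.3 and 109 TPM in NT-ICM (5.43 ± 0.81, limma adjusted p = 0.000521). It had 6.38 to 56.3 TPM in replicates 1 to 3 and 58.3 to 109 TPM in replicates 4 to 6. Sox2, its partner, was listed at 0 in all CC libraries and had 0, 1.58 and 4.01 TPM in NT-ICM (1.13 ± 0.53, limma adjusted p = 0.144). Tdgf1, the Nodal coreceptor Cripto, had 12.9, 35.9 and 8.95 TPM in CC and 0.469, 213 and 455 TPM in NT-ICM (2.68 ± 1.62, limma adjusted p = 0.25). The fertilized libraries had 561 and 639 TPM of Nanog, 153 and 229.6 TPM of Pou5f1 and 338 and 442 TPM of Zfp42. Their differences between NT-ICM and NF-ICM_control did not pass the threshold (limma adjusted p = 0.0541 for Nanog, 0.0773 for Pou5f1 and 0.969 for Zfp42).

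Oct4 and other POU factors are known to bind an octamer element. A shortened form of it was looked for before the start sites, so a match need not be the full octamer. RefSeq promoters (GRCm38.p6) were searched on both strands for TTTGCAT over the 250 bases before the start site, and a match is in capitals. Of 27025 promoters of that length, 1096 (4.06%) held it. Among the 134 genes with values examined here that had a promoter in the table, 8 (5.97%) held it. Of these, Nanog, Zfp42 and Plet1 rose, Tnfaip6 and Gadd45a fell, and Pcna, Sox2 and Cdx2 did not pass the threshold. A selection of 3 is shown, as examples of both directions. Nanog (chr6:122707239-122707488, + strand) and Zfp42 (chr8:43307010-43307259, − strand) rose, and Tnfaip6 (chr2:52037863-52038112, + strand) fell. Their matches begin at −75, −185 and −149 from the start site, that of Tnfaip6 on the opposite strand. Fewer than 80% of the off and on genes had a promoter in the table (72.4% and 65.0%), so a comparison of the classes was void and is not given.
Nanog: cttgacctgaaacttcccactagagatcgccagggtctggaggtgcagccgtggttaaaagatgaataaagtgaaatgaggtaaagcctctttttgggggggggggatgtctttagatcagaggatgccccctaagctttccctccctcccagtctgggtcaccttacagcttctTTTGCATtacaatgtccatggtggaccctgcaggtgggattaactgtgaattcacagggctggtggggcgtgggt
Zfp42: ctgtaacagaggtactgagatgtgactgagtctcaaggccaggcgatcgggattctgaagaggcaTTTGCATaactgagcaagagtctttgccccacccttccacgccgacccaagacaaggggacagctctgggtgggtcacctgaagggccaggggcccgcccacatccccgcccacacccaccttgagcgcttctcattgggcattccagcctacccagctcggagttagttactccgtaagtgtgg
Tnfaip6: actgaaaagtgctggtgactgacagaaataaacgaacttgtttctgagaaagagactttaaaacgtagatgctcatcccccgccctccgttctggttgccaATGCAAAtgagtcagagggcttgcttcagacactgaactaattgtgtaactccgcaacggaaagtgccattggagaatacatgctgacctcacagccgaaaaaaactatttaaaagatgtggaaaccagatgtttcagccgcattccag
The windows hold 3 CpG dinucleotides for Nanog, 9 for Zfp42 and 8 for Tnfaip6. A match is a description of the sequence and not evidence of binding.

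**Figure D3:**
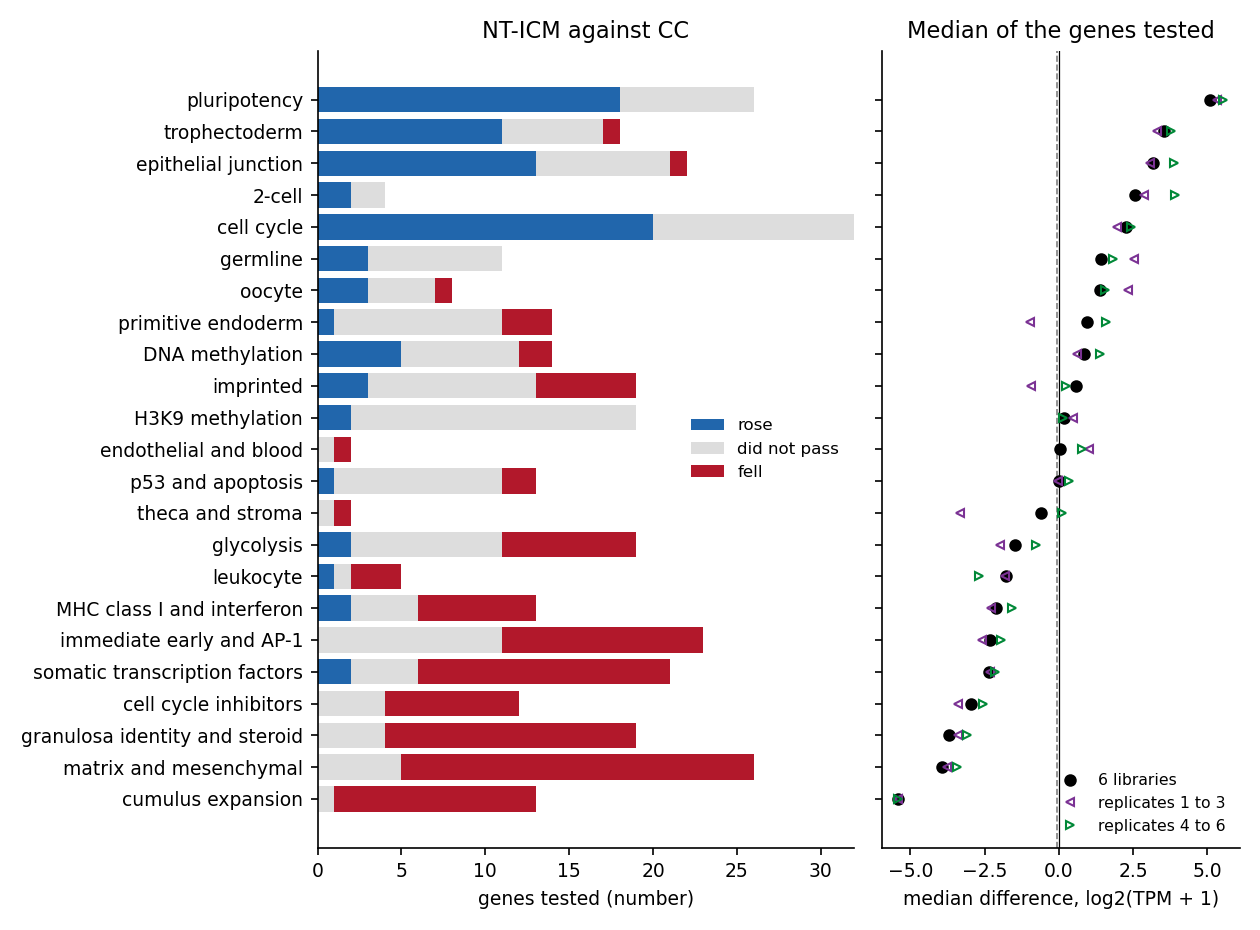
For each of the 23 gene lists, the left panel gives the number of genes tested that rose, fell or did not pass the threshold in NT-ICM against CC, and the right panel the median difference on the log2(TPM + 1) scale with all 6 NT-ICM libraries and with either set. The medians run from −5.41 for cumulus expansion to 5.09 for pluripotency, and the 2 sets lie on opposite sides of 0 for the primitive endoderm, imprinted, p53 and theca lists.

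Genes of the trophectoderm rose as well, in tissue labelled as ICM. Of 20 listed, 18 were tested, 11 rose (61.1%, beside 12.8% of all genes) and 1 fell (5.56%, beside 17.7%). The median was 3.54, and the sets gave 11 and 14 higher genes. In CC, 5 of the 20 had a median of at least 1 TPM, and most of the others had no room to fall. Fabp3, a fatty acid binding protein, had 1.79, 2.1 and 2.31 TPM in CC and 949.6, 2843 and 6448 TPM in NT-ICM (9.80 ± 0.50). Dppa1 had 0.277, 0.648 and 0.231 TPM in CC and 116, 520.1 and 1443 TPM in NT-ICM (8.56 ± 0.65). Gata3, a transcription factor of trophectoderm fate, had 0.434, 0.494 and 0.274 TPM in CC and 72.7, 256 and 608 TPM in NT-ICM (7.32 ± 0.65, limma adjusted p = 1.64e-05). In NT-TE their ranges were 4776 to 11819, 774 to 1643 and 340.4 to 1016 TPM, and no difference between the 2 tissues passed the threshold for these 3. Id2, an inhibitor of helix-loop-helix factors that CCs also express, fell from 1526, 1317 and 1100.5 TPM to 162, 350.4 and 532 TPM (−2.08 ± 0.36). Cdx2, the defining homeobox factor of the lineage, was at 0 to 8.9 TPM in NT-ICM and 1.14 to 33.1 TPM in NT-TE (NT-ICM minus CC, 1.19 ± 0.86, limma adjusted p = 0.337). Krt8, the keratin that TE cells share with CCs, had 144, 275 and 109 TPM in CC and 1061, 1958 and 4320.2 TPM in NT-ICM (3.59 ± 0.46), and 4098 and 175 TPM in the 2 fertilized libraries.

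Epithelial junction genes had 22 members listed and tested. Of these, 13 rose (59.1%, beside 12.8% of all genes) and 1 fell (4.55%, beside 17.7%), with a median of 3.16. The sets gave 10 and 18 that rose and 1 that fell in either. In CC, 7 of the 22 had a median of at least 1 TPM, and most of the others had no room to fall. Epcam, an adhesion molecule of epithelia and of pluripotent cells, had 0.301, 0.229 and 0.28 TPM in CC and 446, 813 and 1058 TPM in NT-ICM (9.18 ± 0.29). Cldn7, a claudin, had 0.514, 0.878 and 0.736 TPM in CC and 110.3, 155 and 328 TPM in NT-ICM (6.63 ± 0.37). Spint1, an inhibitor of membrane serine proteases, had 0.386, 0.153 and 0.0947 TPM in CC and 27.8, 70.6 and 241 TPM in NT-ICM (5.95 ± 0.65). Groups were apart in all 3. Pkp2, a desmosomal plakophilin, fell from 10.5, 8.86 and 9.51 TPM to 0.126, 1.32 and 5.1 TPM (−2.17 ± 0.65, limma adjusted p = 0.0284), and was 18.2 to 40.8 TPM in NT-TE. That call was lost without any 1 of the CC libraries (limma adjusted p of 0.0869 to 0.103). F11r, a junctional adhesion molecule, had 99.4, 94.5 and 48.7 TPM in CC and 25.2 to 369 TPM in NT-ICM (0.62 ± 0.72, limma adjusted p = 0.558).

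Of 19 primitive endoderm genes listed, 14 were tested. Of these, 1 rose (7.14%, beside 12.8% of all genes) and 3 fell (21.4%, near the 17.7% of all genes). The sets gave 1 and 3 that rose and 2 and 3 that fell, and the median went from −0.98 in replicates 1 to 3 to 1.58 in replicates 4 to 6. Lrp2, the endocytic receptor megalin, rose from at most 0.0553 TPM in CC to 0.62, 4.00 and 13.1 TPM in NT-ICM (2.21 ± 0.69, limma adjusted p = 0.0346), a call lost without any 1 of the CC libraries (0.114 to 0.12). The 3 that fell were expressed by the CCs. Srgn, a proteoglycan core protein, had 80.6, 67.6 and 86.5 TPM in CC and 0, 0.129 and 41.2 TPM in NT-ICM (−5.09 ± 1.15, limma adjusted p = 0.00686), where 41.2 TPM was in replicate 3. Gata4, which both granulosa and endoderm cells use, had 10.6, 8.88 and 6.3 TPM in CC and at most 0.247 TPM in NT-ICM (−3.12 ± 0.29). Lama1, a laminin chain, had 9.88, 9.23 and 4.54 TPM in CC and at most 3.15 TPM in NT-ICM (−2.74 ± 0.54). Dab2, an endocytic adaptor, overlapped, with 39.2, 23.8 and 9.68 TPM in CC and 21.1, 118 and 239 TPM in NT-ICM (1.88 ± 0.89, limma adjusted p = 0.144). It was at 122 to 424 TPM in NT-TE.

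Among 14 DNA methylation genes, all tested, 5 rose (35.7%, beside 12.8% of all genes) and 2 fell (14.3%, near the 17.7% of all genes). The median was 0.86. The sets gave 5 and 8 that rose and 2 that fell in either. Zfp57, which guards imprinted methylation, had 0.895, 3.56 and 0.89 TPM in CC and 18.2, 70.7 and 107 TPM in NT-ICM (4.35 ± 0.69). Dnmt3l, the cofactor of de novo methylation, had 0.371, 0.448 and 0.478 TPM in CC and 4.6, 18.9 and 61.5 TPM in NT-ICM (3.85 ± 0.78, limma adjusted p = 0.00365). The TET dioxygenases moved in both directions. Tet2 rose from 3.15, 3.56 and 3.97 TPM to 25.4, 57.5 and 106 TPM (3.59 ± 0.52), and Tet3 fell from 7.9, 10.4 and 7.32 TPM to 0.0126, 0.0653 and 4.11 TPM (−2.77 ± 0.56, limma adjusted p = 0.00377). Mbd2, a reader of methylated DNA, fell from 37.4, 31.8 and 27.6 TPM to at most 3.32 TPM (−4.67 ± 0.57). Tdg, a glycosylase of active demethylation, had 12.7, 13.5 and 10.0 TPM in CC and 3.13 to 87.2 TPM in NT-ICM (1.21 ± 0.84, limma adjusted p = 0.319).

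Genes of H3K9 methylation, a mark of silent chromatin that the study followed through SCNT development, mostly did not pass the threshold. Of 21 listed, 19 were tested, 2 rose and none fell, with a median difference of 0.16. The rises were 10.5% of the list, near the 12.8% of all genes. The sets gave 2 and 5 that rose and 2 and 1 that fell. Setdb2, a methyltransferase, rose from 0.362, 0 and 0.396 TPM to 3.4, 10.1 and 25.4 TPM (3.03 ± 0.64, limma adjusted p = 0.00486). Trim28, the corepressor that recruits such enzymes, rose from 36.7, 40.6 and 33.6 TPM to 40.3, 120.4 and 239 TPM (1.57 ± 0.49, limma adjusted p = 0.0338), and 1 NT-ICM library lay within the CC range. The call for Trim28 was lost in 9 of 19 alternatives, among them without any 1 of the CC libraries (limma adjusted p of 0.0891 to 0.119). Cbx3, a heterochromatin protein, had 492, 489 and 813 TPM in CC, 1353 to 1701 TPM in NT-ICM replicates 1 to 3 and 408 to 560.3 TPM in replicates 4 to 6 (0.52 ± 0.49, limma adjusted p = 0.465).

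Germline, oocyte and 2-cell genes were largely under the filter. Of 24 germline genes 11 were tested and 3 rose (27.3%). Of 22 oocyte genes 8 were tested, 3 rose (37.5%) and 1 fell (12.5%). Of 20 genes of the 2-cell stage 4 were tested and 2 rose (50%). Among all genes tested, 12.8% rose and 17.7% fell. The sets gave 3 and 8 germline genes, 3 and 4 oocyte genes and 1 and 3 genes of the 2-cell stage that rose, and 2 and 1 oocyte genes that fell. Summed over the germline list, CC had 2.2 to 6.27 TPM, and over the 2-cell list 0.359 to 1.51 TPM. Members of these 2 lists passed the filter through NT-ICM and had no room to fall, so the direction of their counts is no result. In CC, 2 of the 22 oocyte genes had a median of at least 1 TPM. Most of the other oocyte genes had no room to fall either. Tex19.1, a germline gene also active in the placenta, had 0, 0.19 and 0 TPM in CC and 73.2, 136 and 225 TPM in NT-ICM (6.90 ± 0.48). The meiotic genes Sycp3 and Sycp1, of the synaptonemal complex, reached 14.2 to 78.0 TPM (4.13 ± 0.59) and 7.51 to 14.0 TPM (3.52 ± 0.43), against at most 1.95 and 0.0312 TPM in CC. All 3 stood apart from CC in every library. Stk31, a kinase of the germline, had at most 0.113 TPM in CC and 0 to 35.1 TPM in NT-ICM (2.82 ± 1.21, limma adjusted p = 0.109).

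Of the oocyte genes, Ooep, a partner of Khdc3 in the maternal complex, rose from at most 0.527 TPM to 10.8, 26.5 and 34.9 TPM (4.09 ± 0.54), and Omt2a rose from at most 0.19 TPM to 2.19, 7.23 and 8.8 TPM (2.65 ± 0.48). Omt2a had a median of 7421 TPM in the SCNT embryo 6 hours after activation. Uchl1, a ubiquitin hydrolase, fell from 254, 233 and 154 TPM to 0.654, 2.26 and 23.9 TPM (−5.52 ± 0.90), and it too was an abundant message of the 6-hour embryo, with 494 TPM. Padi6, of the cytoplasmic lattices, was listed at 0 in CC and had 0.175 to 21.2 TPM in NT-ICM (1.95 ± 0.84, limma adjusted p = 0.108). Of the 2-cell genes, Obox6, a homeobox gene, was listed at 0 in CC and had 4.23, 18.8 and 31.7 TPM in NT-ICM (3.89 ± 0.74), and Sp110, a nuclear body gene, rose from at most 0.294 TPM to 1.34, 16 and 50.04 TPM (3.61 ± 0.95, limma adjusted p = 0.0152, and 0.0617 to 0.066 without any 1 of the CC libraries). Usp17le had 61.8 TPM in replicate 2 and at most 3.45 TPM in the other NT-ICM libraries (1.54 ± 1.21, limma adjusted p = 0.379).

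Of 29 imprinted genes listed, 19 were tested, 3 rose (15.8%, near the 12.8% of all genes) and 6 fell (31.6%, beside 17.7% of all genes), with a median of 0.57. The sets gave 4 and 7 that rose and 6 and 8 that fell, with medians of −0.93 and 0.23. Slc38a4, a paternally expressed amino acid transporter of the placenta, had 2.5, 2.19 and 0.279 TPM in CC and 211, 274 and 344 TPM in NT-ICM (6.79 ± 0.37). Sfmbt2, a paternally expressed Polycomb gene of the trophoblast, had at most 0.297 TPM in CC and 1.82, 7.0 and 75 TPM in NT-ICM (3.28 ± 0.95, limma adjusted p = 0.0245, and 0.0859 to 0.0995 without any 1 of the CC libraries). Snrpn, a splicing gene, rose from 118, 124 and 102 TPM to 420.1, 564 and 603 TPM (2.21 ± 0.17). These 3 are known to be expressed from the paternal allele, and total levels say nothing of the allele. Nap1l5, a nucleosome assembly gene, fell from 141, 151 and 117 TPM to at most 0.4 TPM (−7.01 ± 0.41). Cd81, a tetraspanin, fell from 365, 418 and 271 TPM to 0, 0.482 and 24.5 TPM (−6.94 ± 1.05), and had 12 to 70.6 TPM in NT-TE. Gnas, the stimulatory G protein subunit, fell from 404, 337 and 375 TPM to 0.877, 4.08 and 23.6 TPM (−6.08 ± 0.73). Gab1, an adaptor of receptor kinases, had 6.47, 3.71 and 6.09 TPM in CC and 3.67 to 41.0 TPM in NT-ICM (1.27 ± 0.64, limma adjusted p = 0.169).

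Of 20 glycolysis genes listed, 19 were tested, 8 fell (42.1%, beside 17.7% of all genes) and 2 rose (10.5%, beside 12.8%), with a median of −1.48. The sets gave 10 and 6 that fell and 2 that rose in either. Ldha, lactate dehydrogenase A, had 789.6, 717 and 452 TPM in CC and 0.124, 3.55 and 37.7 TPM in NT-ICM (−6.90 ± 1.15, limma adjusted p = 0.00107). Ldhb fell from 142, 161 and 154 TPM to 0.593, 2.19 and 11.6 TPM (−5.44 ± 0.67), and Pgk1, phosphoglycerate kinase, from 613, 681 and 620.3 TPM to 0.289, 29.98 and 42.5 TPM (−5.18 ± 1.01). No library overlapped in these 3. The glucose transporter Slc2a3 rose from at most 0.478 TPM to 65.2, 101 and 137 TPM (6.42 ± 0.38), and Pdha1, the entry enzyme from pyruvate to the citrate cycle, from 35.1, 28.9 and 28.0 TPM to 81.0, 199 and 392 TPM (2.62 ± 0.48). Aldoa, an aldolase, had 1372, 1277 and 690.0 TPM in CC and 611, 1083 and 1304 TPM in NT-ICM (−0.09 ± 0.29, limma adjusted p = 0.853).

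Of 18 genes of the p53 pathway and apoptosis, 13 were tested, 1 rose (7.69%, beside 12.8% of all genes) and 2 fell (15.4%, beside 17.7%), with a median of 0.01. The sets gave 2 and 3 that rose and 3 and 4 that fell. Trp53 rose from 56.7, 44.9 and 27 TPM to 94.7, 122 and 289 TPM (1.77 ± 0.43, limma adjusted p = 0.00988, and 0.0607 without CC replicate 3). Casp8, the initiator caspase of death receptors, fell from 30.02, 24.4 and 9.26 TPM to at most 1.46 TPM (−3.94 ± 0.53), and Trp53inp1 from 28.6, 24.7 and 32.0 TPM to 0.561, 2.35 and 10.6 TPM (−2.96 ± 0.74, limma adjusted p = 0.0119, and 0.0573 or 0.0626 without CC replicate 1 or 3). Bax, a pore-forming killer protein, overlapped, with 268, 264 and 164 TPM in CC and 128, 272 and 448 TPM in NT-ICM (0.09 ± 0.41, limma adjusted p = 0.894).

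Lists of other cell types that a cumulus preparation could hold were small. Of 11 leukocyte genes, 5 were tested, 3 fell (60%, beside 17.7% of all genes) and 1 rose (20%, beside 12.8%). The sets gave 1 and 2 that fell and 0 and 1 that rose. Cd52, a surface antigen of lymphocytes also found in the reproductive tract, had 117, 131 and 107 TPM in CC and at most 2.09 TPM in NT-ICM (−6.30 ± 0.56), while Lyz2 (59.1, 0.148 and 25.7 TPM) and Tyrobp (8.96, 0 and 3.21 TPM), genes of myeloid cells, varied between the CC libraries. Both fell with all libraries. The call for Lyz2 was lost in 4 of 19 alternatives (limma adjusted p = 0.102 and 0.108 without CC replicate 1 or 3). The groups overlapped for Tyrobp, and its call was lost in 12 of the 16 alternatives in which it was tested, among them every 1 of the NT-ICM libraries left out and CC replicate 3 left out (limma adjusted p of 0.0578 to 0.139). The pan-leukocyte marker Ptprc was at most 0.506 TPM in CC and listed at 0 in NT-ICM. Cd68, a lysosomal protein of macrophages and other cells, rose from 25.0, 8.34 and 22.2 TPM to 33.8, 46.0 and 78.1 TPM (1.49 ± 0.45, limma adjusted p = 0.0292, and 0.144 without CC replicate 2), a call lost in 7 of 19 alternatives, and Cd3e did not pass (0.85 ± 0.74, limma adjusted p = 0.428). Of 8 endothelial and blood genes 2 were tested. Cdh5, a cadherin of endothelium, fell from 5.88, 6.09 and 4.27 TPM to at most 0.519 TPM (−2.49 ± 0.29), and Pecam1, which pluripotent cells also express, had at most 1.91 TPM in CC and 0 to 66.4 TPM in NT-ICM (2.55 ± 1.41, limma adjusted p = 0.209). Of 8 theca and stroma genes 2 were tested. Nr2f2, a nuclear receptor of stroma, fell from 14.6, 14.9 and 15.7 TPM to at most 2.91 TPM (−3.34 ± 0.60), and Pdgfra, which marks both stroma and primitive endoderm, had 0 to 19.5 TPM in NT-ICM (2.16 ± 0.98, limma adjusted p = 0.125).

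Most genes expressed in CC were also expressed at the end point, a class that includes genes that every cell uses. Of the 3760 genes at 5 TPM or more at both ends, 286 were lower in NT-ICM, 792 were higher and 2682 did not pass the threshold. The lower genes numbered 184 without CC replicate 1 and 176 without CC replicate 3. The most abundant was Spp1, which encodes osteopontin, a secreted phosphoprotein, and was chosen for mention after its values were seen. It had 97817, 137886 and 129077 TPM in CC and 2816, 4359 and 6417 TPM in NT-ICM (−4.79 ± 0.24, limma adjusted p = 7.57e-07), so this gene alone made up at least 97817 TPM of the donor cell's messages. The groups were far apart, and NT-ICM had more Spp1 than NT-TE, with 104 to 1179 TPM there (NT-ICM minus NT-TE, 3.03, limma adjusted p = 0.00633). Of the 3760 genes, 3639 had at least 5 TPM in at least 5 NT-TE libraries and 3642 in both fertilized libraries. Of all 5930 CC genes, 4621 had at least 5 TPM in both fertilized libraries.

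Genes that were still on were defined as those present in CC and in NT-ICM but under 1 TPM in both NF-ICM_control libraries, and 2 genes met this rule. Gm10012 (chr17:25901856-25902227), a pseudogene of the respiratory chain gene Cox7c, had 28.4, 19.3 and 44.6 TPM in CC and 15.3, 20.2 and 26.5 TPM in NT-ICM, with overlapping groups, and 0 and 0.639 TPM in the fertilized ICM (NT-ICM minus NF-ICM_control, 4.05 ± 0.49, limma adjusted p = 3.36e-05). Toporsos (chr4:40269579-40270221), a transcript antisense to Topors, had 25.8, 20.9 and 29.4 TPM in CC and 3.37, 7.87 and 12 TPM in NT-ICM, lower than in CC (−1.60 ± 0.46, limma adjusted p = 0.0229, and 0.0735 to 0.119 without any 1 of the CC libraries), and 0 and 0.77 TPM in the fertilized ICM (2.69 ± 0.56). Neither level is certain. A processed pseudogene can take reads from its parent gene, and Toporsos overlaps the first bases of Topors on the opposite strand, which libraries that do not mark the strand cannot resolve. In NT-TE, Gm10012 had 12.4 to 39.2 TPM and Toporsos 3.76 to 12.6 TPM. Neither was a message of the early SCNT embryo, with medians of 0.047 and 0.775 TPM at 6 hours after activation and 20.8 and 5.0 TPM at the 8-cell stage. The count moved with the limit and the fertilized library. It was 22 without NF-ICM_control replicate 1, 13 without replicate 2, and 3 or 4 without 1 of the NT-ICM replicates 1, 2, 3, 4 or 5. Just outside the rule, 4 genes missed it by 1 NT-ICM library and 2 by a fertilized level of 1 to 2 TPM.

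A test gave a wider reading. In the fit of the 4 groups, 448 of 11269 genes were higher in NT-ICM than in NF-ICM_control (3.98%) and 1221 were lower (10.8%). Among the 5880 CC genes tested, 409 (6.96%) were higher and 328 (5.58%) lower. Without NF-ICM_control replicate 1 they were 305 and 117, and without replicate 2 they were 299 and 94. With both libraries the CC genes had a median difference of −0.44 beside −0.79 for all genes. After quantile normalization the median over all genes was 0.02, and the share of higher genes among those called went from 26.8% to 60.3%. Of the 409, 407 also belonged to the genes present at both ends. Relative to the donor cell, 50 of the 409 were lower in NT-ICM, 62 were higher and 297 did not pass the threshold. The fit with either set of NT-ICM gave 374 and 550 such genes.

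The following examples from the 409 were chosen after their values were seen. Crip1, a small LIM domain protein, had 261, 208 and 273 TPM in CC, 60.3, 317 and 482 TPM in NT-ICM and 10.7 and 12.1 TPM in NF-ICM_control (NT-ICM minus NF-ICM_control, 4.32 ± 0.61, limma adjusted p = 0.000134). Mgst2, a relative of Mgst1, had 108, 75.3 and 101 TPM in CC, 41.8, 55.8 and 68.7 TPM in NT-ICM and 1.74 and 2.44 TPM in the fertilized ICM (4.18 ± 0.42). In NT-ICM Crip1 overlapped the donor cell and Mgst2 lay below it, and the fertilized libraries were lower than every NT-ICM library for both. Rhox5, an X-linked homeobox gene, had 13.4, 8.34 and 12.5 TPM in CC, 404, 601 and 1169.6 TPM in NT-ICM and 4.02 and 77.6 TPM in the fertilized ICM (4.94 ± 0.64). Here NT-ICM also exceeded the donor cell (5.64 ± 0.34). The metallothionein Mt1 had 638, 463 and 599 TPM in CC, 669 to 1684 TPM in NT-ICM and 164 and 64.8 TPM in the fertilized ICM (3.17 ± 0.34), and Mt2 had 64.7 to 95.1, 457 to 1094, and 89.2 and 36.8 TPM (3.36 ± 0.34). Ndufa1, a subunit of respiratory complex I, had 331, 264 and 411 TPM in CC, 73.9 to 158 TPM in NT-ICM and 10.5 and 21.8 TPM in the fertilized ICM (2.90 ± 0.32). Hist1h2ag, a replication-dependent histone gene, had 36.8 to 89.5 TPM in CC, 77.5 to 528 TPM in NT-ICM and 13.7 and 30.5 TPM in the fertilized ICM (3.77 ± 0.57), and is uncertain because its copies are near-identical. In the SCNT embryo 6 hours after activation the medians were 1.55 TPM for Crip1, 0.0212 TPM for Mgst2 and 0.141 TPM for Rhox5.

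**Figure D4:**
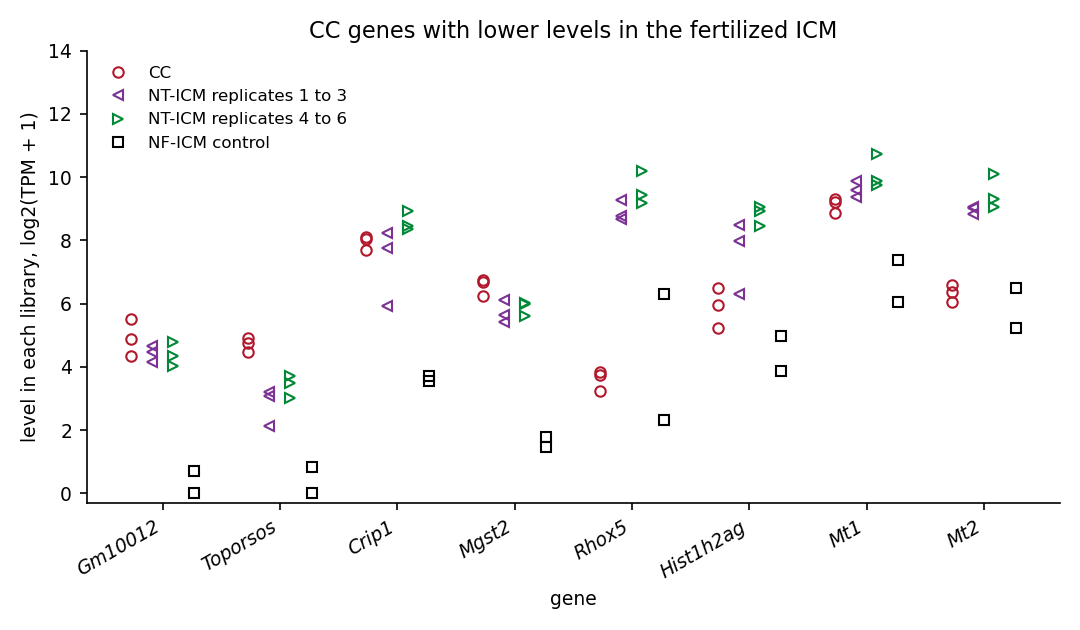
Each point is the log2(TPM + 1) of a gene in 1 library of CC, NT-ICM or NF-ICM_control, for the still-on genes and further CC genes that were higher in NT-ICM than in the fertilized ICM. Points of NF-ICM_control lie below those of NT-ICM for every gene shown, for example 10.7 and 12.1 TPM against 60.3 to 482 TPM for Crip1.

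The 409 genes had short transcripts. Their median transcript length, available for 388 of them (94.9%), was 671 bases beside 1070 bases for all CC genes tested. Among CC genes with transcripts under 1000 bases, 316 of 2667 (11.8%) were higher in NT-ICM than in NF-ICM_control, and among longer ones 72 of 3002 (2.40%). The part of transcript length in these differences was not tested.

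Between the ends, SCNT embryos had been sequenced at 7 earlier stages, with 5 libraries at the 4-cell stage and 6 at each of the others, and the medians there did not define the classes. Of the 366 genes that ended off, 116 (31.7%) had a median of at least 1 TPM at 6 hours after activation, 160 (43.7%) at the late 2-cell stage, 76 at the 4-cell stage, 46 at the 8-cell stage and 39 (10.7%) at the morula. At all 7 stages, 148 (40.4%) were under 1 TPM. The oocyte cytoplasm also holds maternal messages, and a level in the early embryo cannot be told apart from them. Inha and Ptgs2, for example, were at 0.0281 and 0.208 TPM at 6 hours, whereas Rgs2 was at 751 TPM then, 48.1 TPM at the late 2-cell stage and 0.127 TPM at the morula. Mgst1 had 8.24 TPM at 6 hours, 2.49 TPM at the late 2-cell stage and 0 from the 4-cell stage as listed. Il7, a cytokine gene chosen after its values were seen, had 9.44 to 23.5 TPM in CC, 129 TPM at 6 hours, 238 TPM at the late 2-cell stage and 9.25 TPM at the 4-cell stage.

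Genes that ended on reached 5 TPM at different stages, where levels in the early embryo again cannot be told apart from maternal messages. A median of 5 TPM was first reached by 57 of the 217 (26.3%) at 6 hours after activation, by 47 at the late 2-cell stage, 11 at the 4-cell stage, 42 at the 8-cell stage, 16 at the morula and 30 in NT-ICM, and by 7 each at the other 2 stages. Dppa2 had 40.4 TPM at 6 hours and 104 TPM at the late 2-cell stage. Sall4, a zinc finger factor of the pluripotency network, had 278 TPM at 6 hours and 44.2 TPM at the late 2-cell stage. Pramel6 reached 41.7 TPM at the late 2-cell stage, Plet1 5.51 TPM at the 4-cell stage, and Nanog and Utf1 16.2 and 28.9 TPM at the 8-cell stage. Gjb5, a connexin of trophoblast, was at 1.78 TPM in the morula and at 84.6, 226 and 385 TPM in NT-ICM. Sall4, Plet1, Utf1 and Gjb5 were chosen after their values were seen.

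**Figure D5:**
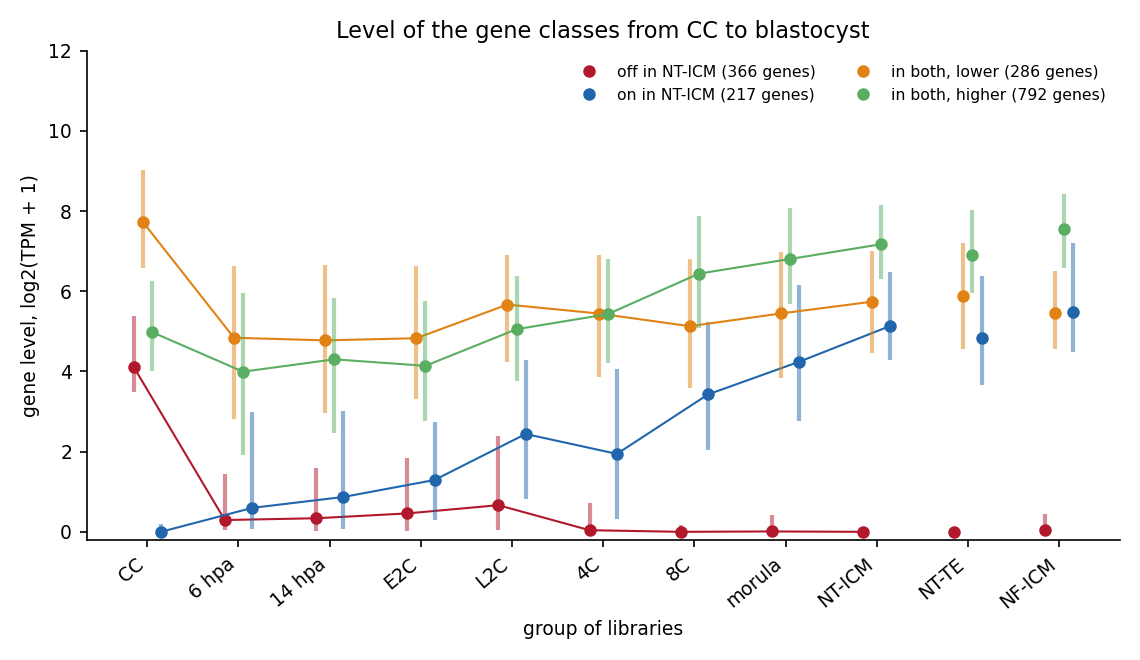
For each group of libraries from CC through the 7 SCNT stages to NT-ICM, NT-TE and NF-ICM_control on the x axis (hpa, hours post activation; E2C and L2C, early and late 2-cell; 4C and 8C, 4-cell and 8-cell), points give the median of log2(TPM + 1) over the genes of a class and vertical bars the range from the lower to the upper quartile. The off class has a median of 16.3 TPM in CC and lies near 0 in NT-ICM, the on class takes the opposite course, and the lower and higher genes present at both ends stay above 0 at every stage.

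Of the 3760 genes present at both ends, 3209 (85.3%) had a median of at least 1 TPM at all 7 stages between, and 551 were below 1 TPM at some stage. At 4 or more stages, 55 were below 1 TPM. Among these, Capg, an actin capping protein, and Xbp1, a factor of the unfolded protein response, were chosen after their values were seen. Capg had 183, 178 and 110.0 TPM in CC, 0.0338 TPM at 6 hours, 0.136 TPM at the 4-cell stage, 37.8 TPM at the morula and 413, 572 and 764 TPM in NT-ICM, where it was higher than in CC (1.86 ± 0.25, limma adjusted p = 0.000257). Xbp1 had 251, 265 and 160.2 TPM in CC, 0.0535 TPM at 6 hours, 25.7 TPM at the morula and 2.84, 69.7 and 143 TPM in NT-ICM (−2.06 ± 1.01, limma adjusted p = 0.154).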

How the data were processed

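Per the labels, Smart-seq2 libraries of 10 blastomeres were sequenced as paired ends. The submitters' processing notes name cutadapt 1.16, HISAT2, StringTie and mm10, with which the authors trimmed and aligned the reads and estimated levels. The versions of HISAT2 and StringTie are not given in the sources used here. The deposited tables give, per transcript entry, coverage, FPKM and TPM. Coverage is the signal deposited by the authors per base, and their FPKM and TPM values are normalized for length and depth, so no read counts are held and the DESeq2 test of the study could not be run. Depth is given as gigabases, the median over entries of coverage divided by FPKM, following StringTie's formula. An exact 0 can be a missed gene at this input.

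Entries without a gene name were left out, TPM was summed per gene, and genes with a mean of at least 1 TPM were tested on log2(TPM + 1) with limma 3.58.1 (R 4.3.3, eBayes with trend). A fold change on this scale understates low genes. NT-ICM was compared with CC over 9 libraries, and with NF-ICM_control and NT-TE in a fit of 17 libraries. Calls needed an adjusted p under 0.05 and at least 2-fold. The code was tested on simulated data. Named genes are the 12 largest changes in each direction without overlap (mean at least 20 TPM in the higher group), up to 3 per list and direction plus the most abundant member that did not pass, the 10 leading members of each class, and those said to be chosen later. The members and lists were chosen with earlier results of these data known. Alternatives changed the pseudocount, filter, scaling, libraries and classes. Libraries of CC and NT-ICM were not treated as paired by replicate number (correlations of deviations of −0.040, −0.032 and 0.062, under the limit of 0.1). Libraries of unlike number could pass that limit, as CC replicate 3 did with NT-ICM replicate 2 (0.122). The check therefore cannot exclude pairing. Transcript lengths are the medians of GENCODE vM21 transcripts. Tables were handled in Python 3.11.15 with numpy 2.4.6, pandas 2.3.3 and matplotlib 3.10.9. In all, 10 libraries of other experiments were not used here.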

Additional observations from a re-analysis of the deposited data

Results flagged for a closer look

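In 17 of the 122 named genes with the spread examined (13.9%), 1 NT-ICM library stood far from the other 5 by Dixon's test. Its limit is set for about 1 in 20 groups of normally spread values. For Hsd3b1 and Vim the other 5 libraries were listed at 0, where any single value is flagged. The 6 libraries also form 2 sets of unlike depth, so the 13.9% cannot be compared with that rate. A single library was high for Hsd3b1 (replicate 6, 3.03 TPM), Vim (replicate 6, 7.1 TPM), Fosl2 (replicate 5, 1.01 TPM), Egr1 (replicate 4, 5.09 TPM), Srgn (replicate 3, 41.2 TPM), Lama1 (replicate 6, 3.15 TPM), Mbd2 (replicate 6, 3.32 TPM), Tet3 (replicate 3, 4.11 TPM), Usp17le (replicate 2, 61.8 TPM), Gadd45a (replicate 6, 6.67 TPM) and Cd3e (replicate 3, 11 TPM). The other 5 libraries had at most 1.74 TPM of Srgn and 0.0459 TPM of Egr1. A single library was low for Ier2 (replicate 1, 0.21 TPM), B2m (replicate 2, 5.21 TPM), Tdgf1 (replicate 3, 0.469 TPM), Cdc6 (replicate 2, 1.08 TPM), Pgk1 (replicate 3, 0.289 TPM) and Xbp1 (replicate 2, 2.84 TPM). The other 5 had at least 153 TPM of Tdgf1 and 35.7 TPM of Cdc6. All 6 low values were in replicates 1 to 3, which had the fewest genes at 1 TPM or more.

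The change from CC differed between the tissues of the SCNT blastocyst for 6 named genes, since NT-ICM and NT-TE differed in the fit of 4 groups. NT-ICM was lower than NT-TE for Pkp2 (−3.48, limma adjusted p = 0.0152), Cd81 (−3.77, limma adjusted p = 0.0439) and Mt1 (−1.21, limma adjusted p = 0.0336). It was higher for Gm16367 (2.37, limma adjusted p = 0.0264), Utf1 (2.13, limma adjusted p = 0.0373) and Spp1 (3.03, limma adjusted p = 0.00633).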

How the results depend on the processing

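Without read counts, precision rests on the spread of 3 and 6 libraries alone, and levels near 0 are not resolved at this input. With replicates 4 to 6 alone, 3245 genes were higher, 497 were on, and of those present at both ends 702 were lower and 1382 higher. With replicates 1 to 3 alone, 843 were off. A mean filter of 5 TPM left 1036 lower and 209 off. Quantile normalization gave 227 off, 481 lower genes at both ends, and 657 CC genes higher than in the fertilized ICM, which were 212 when NT-ICM and NF-ICM_control were fitted alone. Higher genes were 41.9% of those called, 56.8% with the filter of 5 TPM, and the median over genes was 0.10 after quantile normalization and −0.30 with a pseudocount of 0.1. Still-on genes were 1 at a minimum of 10 TPM, 1 when all 6 NT-ICM libraries had to reach it, and 0 at a fertilized limit of 0.5 TPM.

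Leaving out 1 library gave 980 to 1727 higher, 1359 to 2033 lower, 374 to 430 off and 168 to 284 on genes. Genes lower at both ends ranged from 176 (without CC replicate 3) to 343, with 184 without CC replicate 1. Still-on genes ranged from 2 to 22, with 22 and 13 without NF-ICM_control replicate 1 or 2 and 4 without NT-ICM replicate 2, 4 or 5.

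With the replicate number as a block, which keeps NT-ICM replicates 1 to 3 only as paired, 804 genes were higher (26.5% of those called), 188 lower and 476 higher at both ends. Of 117 called genes named, 96 kept their call in all 19 alternatives and 21 lost it in at least 1, 17 of them under the block and 10 with replicates 1 to 3 alone, and none changed direction. The counts per gene list under these alternatives were added after the data were seen.

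Genes that missed the threshold changed sign as follows. Il6 was −0.54 with a pseudocount of 0.1, −0.78 in replicates 1 to 3 and under the block, and −0.46 to 1.00 with 1 library left out (negative without NT-ICM replicate 3, 4 or 5). Ier2 was −1.60 in replicates 1 to 3 and under the block, and −0.058 to 1.59 with 1 library left out (negative without CC replicate 3 or NT-ICM replicate 4). F11r was −0.29 in replicates 1 to 3 and under the block, and Cbx3 −0.29 in replicates 4 to 6. Aldoa was 0.11 in replicates 4 to 6 and −0.40 to 0.095 with 1 library left out (positive without CC replicate 1 or 2 or NT-ICM replicate 2). Bax was −0.18 after quantile normalization, −0.043 in replicates 1 to 3 and under the block, and −0.142 to 0.272 with 1 library left out (negative without CC replicate 3 or NT-ICM replicate 6). Crip1 against CC was −0.016 with TPM rescaled over annotated genes, −0.23 after quantile normalization, −0.63 in replicates 1 to 3 and under the block, and −0.190 to 0.405 with 1 library left out (negative without CC replicate 2 or NT-ICM replicate 3, 4, 5 or 6). The causes were not tested.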
